A study of Rattus norvegicus with 6 samples.

Results

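The comparison set injured rat pancreas treated with exosomes against injured pancreas that received saline: 2 TP+hucMSC-Exs libraries (called treated libraries below) and 2 TP libraries, 4 of the 6 libraries of the study. It covered all genes with a mean of at least 1 TPM over the 6 libraries, 11477 of the 34001 genes in the table. TPM is a transcript abundance corrected for gene length and scaled to the same total in every library, so it keeps no sequencing depth and the depth was unknown. At the edge of the filter, Paqr3 and Esf1 had a mean of 1 TPM and were kept, while Wdr5b and Ccdc82 had 0.998 TPM and were not. All rats were Sprague-Dawley, an outbred laboratory strain, and pancreas was taken 24 h after the injury. In the TP group (traumatic pancreatitis) the exposed gland was crushed over 3 cm2 with a load of 10 kg by an impactor built in the laboratory, and 1 ml of saline went into a tail vein. Rats of the TP+hucMSC-Exs group had the same injury and were given exosomes of human umbilical cord mesenchymal stem cells (hucMSC-Exs), 10 μg per 100 g of body weight, by the same route at an unstated time. The 2 control rats, whose values are printed for reference, had a laparotomy in which the gland was only turned, and 1 ml of saline. No library analysed here comes from an uninjured rat given exosomes, or from an injured rat given vesicles of another source. The question was which genes set both treated libraries apart from each TP library.

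The exocrine pancreas consists of acinar cells, which make and store digestive enzymes, and of ducts that carry the enzymes to the gut. Duct cells are typical simple epithelium, held together by tight junctions built of claudins, by adherens junctions and by desmosomes, with keratin filaments inside and a laminin-containing basement membrane below. Injured acinar cells are known to secrete stress proteins such as the Reg lectins and to switch on duct-type genes, a reversible state called acinar-to-ductal metaplasia. Exosomes are small vesicles that cells release with protein and RNA cargo, and those of mesenchymal stem cells are studied as a treatment of inflamed tissue.

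The TP libraries were far apart from each other. The digestive enzyme list took 67.5% of all TPM in TP replicate 1 and 18.2% in TP replicate 2, against 58.8% and 53.8% in the treated libraries and 75.0% and 71.9% in the controls. Median-of-ratios factors, which bring the typical gene to the same level, were 0.477 and 5.42 for the TP libraries and 1.20 and 1.48 for the treated ones. Even after that scaling the median gene differed by 0.69 (log2) between the TP libraries, against 0.15 between the treated libraries. In the deposited TPM the treated libraries therefore lay between the TP libraries for 10012 genes, of which 9906 were highest in TP replicate 2. The treated mean of the median gene was 1.10 (log2) above TP replicate 1 and 1.88 below TP replicate 2 (a difference of -1.88), and after scaling these differences were 0.01 and -0.02. TP replicate 2 held 3558 TPM of 5 summed adipocyte markers and 4353 TPM of 5 fibroblast markers, against 16.6 and 77.3 TPM in TP replicate 1.

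A gene is called separated here when both treated libraries lay above, or both below, each TP library in the deposited TPM and also after median-of-ratios scaling. Its gap is the smallest difference between any treated and any TP library on the log2(TPM + 0.5) scale, taking the smaller of the 2 scalings. Separation is a description with no test, since an exact permutation test of 2 against 2 libraries cannot give a two-sided p below 0.333. Of the genes tested, 291 (2.54%) were separated higher in the treated libraries and 101 (0.88%) lower. Of the 291, 120 reached the filter only through the treated libraries (the mean of the control and TP libraries was below 1 TPM), so a high treated level was needed for them to be counted. Among the 11234 other genes, 171 (1.52%) were separated higher. By a gap of at least 1, 89 genes (0.775%) were separated higher and 17 (0.148%) lower, and by a gap of at least 2, 41 (0.357%) and 6 (0.0523%). The median gap was 0.54 among the higher genes and 0.32 among the lower ones. With limma on the deposited TPM, over all genes and with Benjamini-Hochberg adjustment, 6 genes (0.0523%) were higher and 2 (0.0174%) lower. After median-of-ratios scaling limma called 2 genes higher (0.0174%) and 0 lower, with 585 and 240 at an unadjusted p below 0.05. The plot of treated means against each TP library shows the separated genes in the corners of both panels.

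**Figure D1:**
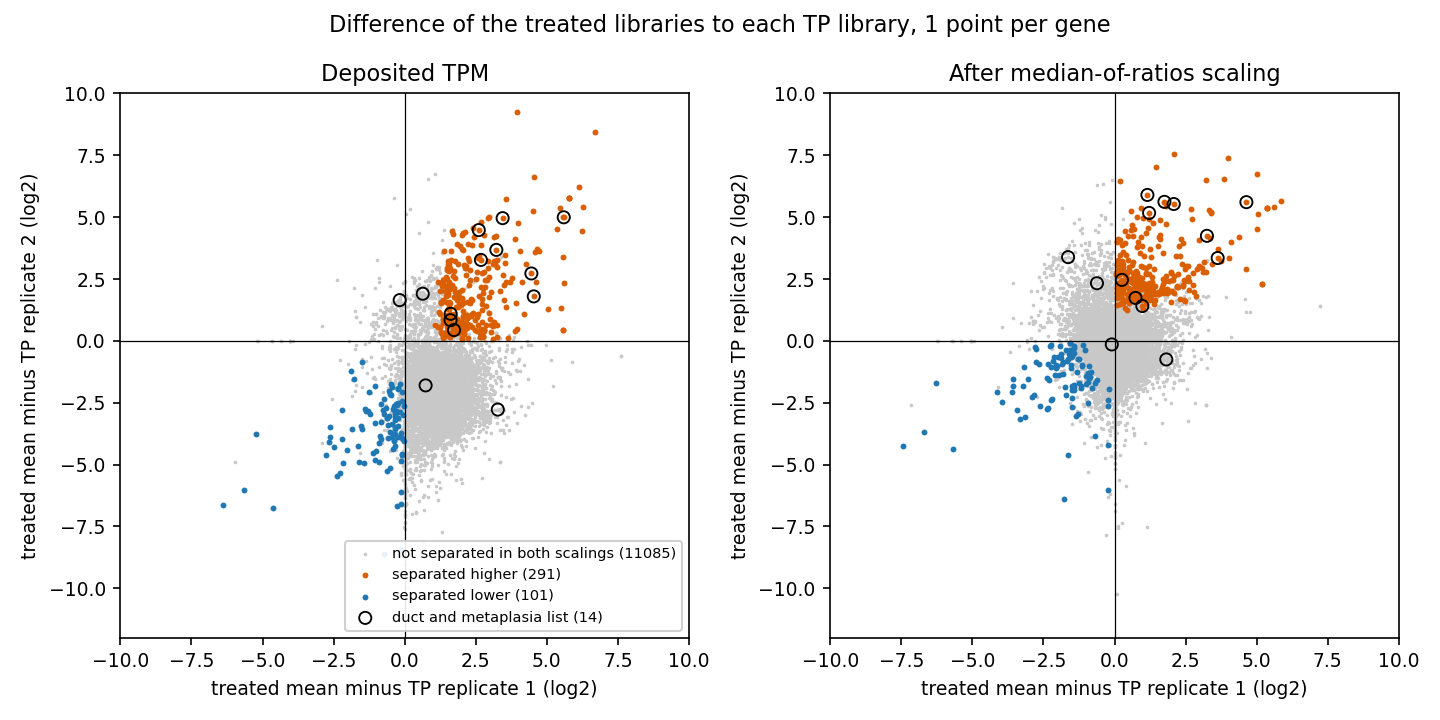
Difference of the mean of the treated libraries to TP replicate 1 (x axis) and to TP replicate 2 (y axis), log2(TPM + 0.5), 1 point per gene for 11477 genes, as deposited (left) and after median-of-ratios scaling (right). The 291 genes separated higher (orange) and the 101 separated lower (blue) are marked, and black rings show the 14 measured duct and metaplasia genes; in the left panel most genes lie right of and below 0, and in the right panel they centre on 0.

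The genes called by limma after scaling were Slc26a9 and Hamp, whose TP libraries were near 0 and whose treated libraries were not. Both reached the filter only through the treated libraries, so a high treated level was needed for them to be tested at all. Slc26a9 (ENSRNOG00000029514), a chloride transporter of airway and stomach epithelium, stood at 24.4 and 25.9 TPM in treated rats and at 0.04 and 0.30 TPM in TP rats. The controls, at 0.01 and 0.05 TPM, were as low as the TP libraries, so the treated pair stood alone at the top. Its log2 fold change was 5.29 ± 1.45 (SE, n = 2 per group; limma adjusted p = 0.136) as deposited and 5.09 ± 0.21 (SE; adjusted p = 0.0259) after scaling. Hamp (ENSRNOG00000021029), the precursor of the iron hormone hepcidin, which is best known from liver, stood at 26.3 and 55.0 TPM in treated rats, was listed at 0 in TP replicate 1 and stood at 0.40 TPM in TP replicate 2. It was also listed at 0 in both controls. Its log2 fold change was 5.85 ± 1.44 (SE; limma adjusted p = 0.0557) as deposited and 5.76 ± 0.31 (SE; adjusted p = 0.0460) after scaling. All fold changes here are on the log2(TPM + 0.5) scale, which understates the change of genes near 0. The p-values set a change against a spread between rats pooled over the 3 groups. On the deposited TPM that spread was the typical one of genes of like abundance, and the gene's own spread had no weight. After scaling the gene's own spread entered as well, so the 2 sets of p-values measure different spreads.

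Several other genes known from epithelium or inflamed tissue had wide gaps without passing the test in either scaling. Ubd and Tspan1 passed with a replicate block (limma adjusted p = 0.0364 and 0.0233), a pairing that the labels do not state. Anxa10 (ENSRNOG00000014339), a calcium-binding annexin, stood at 25.8 and 25.2 TPM versus 0.65 and 0.19 TPM in TP rats, a gap of 3.24. It was the single member separated among 9 measured annexins and reached the filter only through the treated libraries; Anxa1, Anxa2, Anxa4 and Anxa5 lay between the TP libraries as deposited, as in Anxa5, with 80.8 and 92.5 TPM versus 17.8 and 350.3 TPM. Ubd (ENSRNOG00000000768), a ubiquitin-like protein induced by inflammatory cytokines, stood at 33.6 and 55.2 TPM versus 0.08 and 1.52 TPM, a gap of 4.08 (log2 fold change 5.33 ± 1.43, SE; limma adjusted p = 0.110). Its control values, 0 and 2.98 TPM, did not overlap with the treated ones either. Tspan1 (ENSRNOG00000023320), a tetraspanin of epithelial cells, stood at 49.6 and 78.6 TPM versus 2.21 and 0.14 TPM, a gap of 3.03. Like Anxa10, Tspan1 reached the filter only through the treated libraries. Wfdc2 (ENSRNOG00000014739), a secreted protein with a protease-inhibitor fold, stood at 54.9 and 94.0 TPM versus 2.24 and 5.39 TPM, a gap of 3.16. In each of these 4 genes the treated libraries lay above all other libraries. H3f3c (ENSRNOG00000032401), a histone H3.3 gene, differed from them, since its controls, at 4.78 and 13.9 TPM, lay between TP values of 0.06 and 2.04 TPM and the treated values of 23.3 and 29.4 TPM. Near-identical copies of histone genes share reads, so its level is uncertain.

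**Figure D2:**
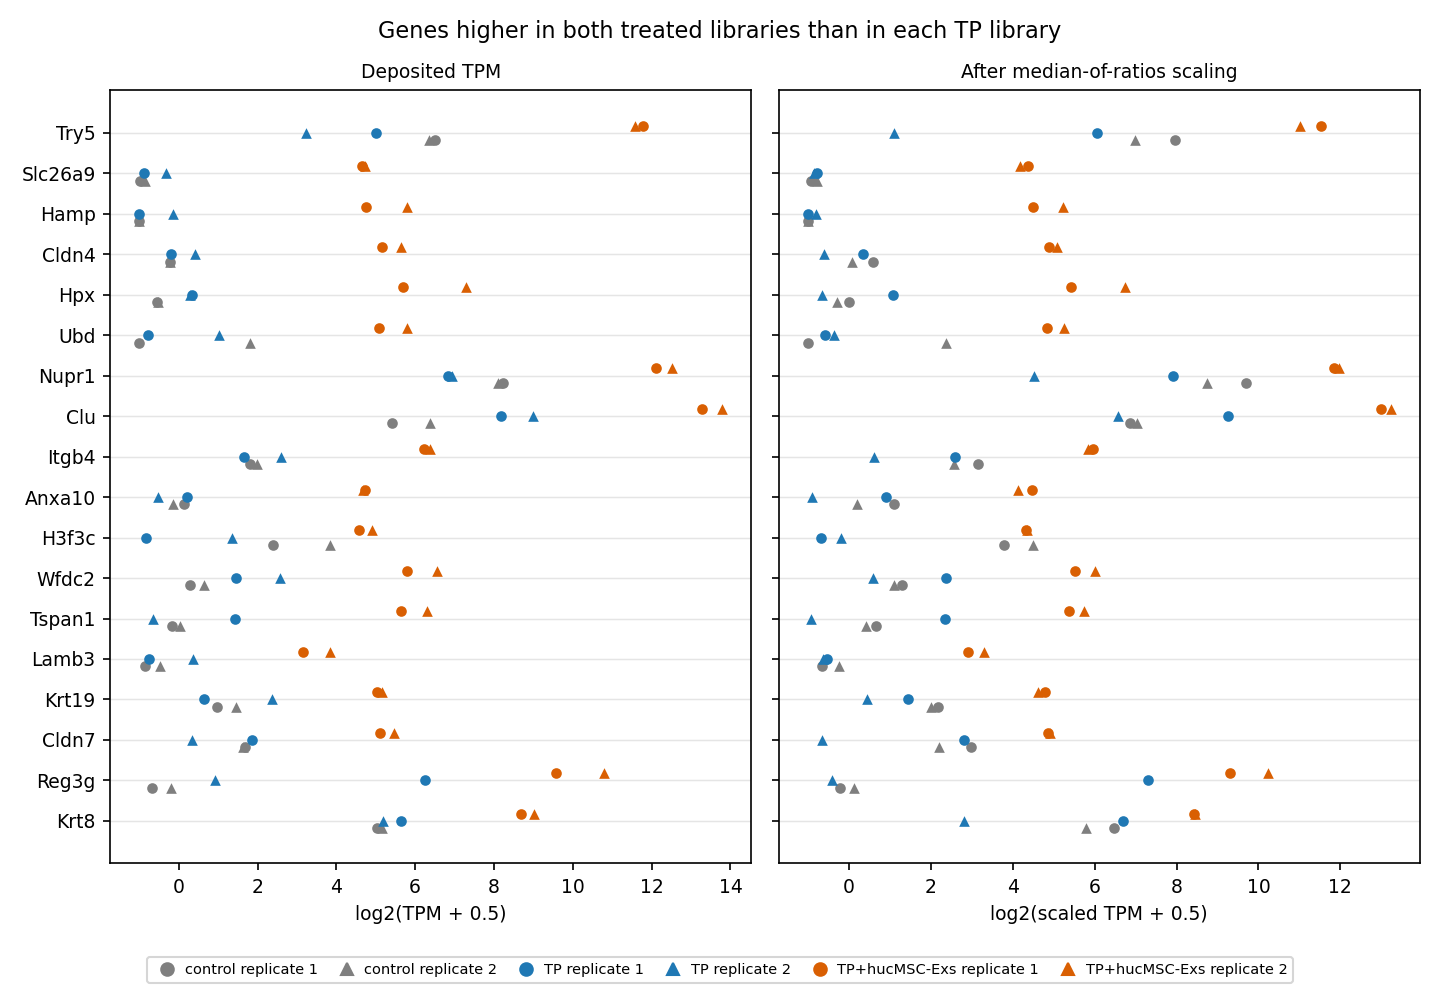
Level of each named gene separated higher, on the log2(TPM + 0.5) scale as deposited (left) and after median-of-ratios scaling (right), with 1 symbol per library, coloured by group and shaped by replicate. In every line both treated libraries (orange) lie to the right of both TP libraries (blue); Slc26a9, Hamp and Cldn4 also have both controls near the bottom of the scale.

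The promoters of Hamp, Anxa10, Krt8 and Epcam are shown because these genes stood higher together and each promoter holds the motif of AP-1, a factor induced early in injured tissue. They are from RefSeq (build GRCr8), 250 bases before to 50 after the gene's start, 5′ to 3′ on the gene's strand: chr1:95300222-95300521 (minus strand), chr16:32504775-32505074 (plus strand), chr7:135010290-135010589 (minus strand) and chr6:12649629-12649928 (minus strand). Capitals mark matches to TGANTCA, the AP-1 motif, or to TTCNNNGAA, the STAT motif, searched on both strands.
Hamp: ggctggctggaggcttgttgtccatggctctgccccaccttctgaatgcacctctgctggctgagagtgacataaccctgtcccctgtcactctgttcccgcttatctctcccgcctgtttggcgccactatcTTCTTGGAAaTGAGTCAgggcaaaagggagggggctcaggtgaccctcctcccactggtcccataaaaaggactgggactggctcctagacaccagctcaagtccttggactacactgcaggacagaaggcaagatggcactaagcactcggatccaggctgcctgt
Anxa10: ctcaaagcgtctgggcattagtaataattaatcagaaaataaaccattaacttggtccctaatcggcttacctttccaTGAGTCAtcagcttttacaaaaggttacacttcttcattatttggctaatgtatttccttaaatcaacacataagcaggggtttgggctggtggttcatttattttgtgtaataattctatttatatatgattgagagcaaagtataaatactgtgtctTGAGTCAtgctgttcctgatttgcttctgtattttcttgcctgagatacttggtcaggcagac
Krt8: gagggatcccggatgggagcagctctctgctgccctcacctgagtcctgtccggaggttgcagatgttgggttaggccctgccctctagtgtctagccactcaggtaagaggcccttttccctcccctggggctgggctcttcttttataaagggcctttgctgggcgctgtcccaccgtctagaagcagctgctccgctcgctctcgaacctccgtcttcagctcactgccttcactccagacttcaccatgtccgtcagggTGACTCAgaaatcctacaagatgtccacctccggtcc
Epcam: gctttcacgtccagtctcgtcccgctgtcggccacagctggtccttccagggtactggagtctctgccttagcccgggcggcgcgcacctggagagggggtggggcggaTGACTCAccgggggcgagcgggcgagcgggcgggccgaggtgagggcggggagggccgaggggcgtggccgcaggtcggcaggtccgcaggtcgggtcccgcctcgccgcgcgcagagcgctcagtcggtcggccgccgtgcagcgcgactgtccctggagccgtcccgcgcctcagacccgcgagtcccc
Counted from the start site, the STAT match of Hamp begins at position -117 and its AP-1 match at -107, without overlap. Anxa10 holds TGAGTCA at positions -172 and -13, Epcam holds TGACTCA at -141, and in Krt8 the match begins 13 bases after the start. Over all 27457 promoters of that table, 7.33% hold the AP-1 motif and 8.68% the STAT motif. Only 42 of the 89 genes separated higher by at least 1 (47.2%) had a promoter in the table, too few for a share of motifs among them. Of those 42, 7 held the AP-1 motif and 35 did not, Slc26a9, Try5, Hpx and Nupr1 included, so the 4 shown were picked for holding it. Among all 291 genes separated higher, 170 had a promoter, and 13 of these (7.65%) held the AP-1 motif. Of the 8084 genes tested with a promoter, 5.00% held it. A match is a description of letters, not of a bound site. In the AP-1 list itself, 0 of 19 measured genes were separated, where 2.54% of all genes were separated higher and 0.88% lower. After scaling alone, 8 of the 19 lay above both TP libraries and 0 below, against 18.2% and 17.8% of all genes. Fos stood at 1.28 and 2.58 TPM between TP values of 0.09 and 15.9 TPM.

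Keratins and claudins recurred among the genes with wide gaps. All genes whose symbol names them as family members were taken, but most were below the filter: 8 of 47 keratins and 10 of 23 claudins in the table were measured. Of the 8 keratins, 5 were separated higher (Krt7, Krt8, Krt17, Krt18 and Krt19) and 0 lower. Krt17 and Krt20 reached the filter only through the treated libraries. Of the other 6, 4 were separated higher, where 1.52% of all such genes were. Krt8 (ENSRNOG00000009779) and Krt18 (ENSRNOG00000047393), the pair that forms filaments in simple epithelium including acinar cells, were the most abundant of them. Krt18 stood at 209 and 255 TPM versus 35.5 and 23.4 TPM in TP rats and 24.8 and 25.6 TPM in the controls, a gap of 1.21. Krt19 (ENSRNOG00000014233), which in pancreas marks ducts, stood at 32.4 and 35.3 TPM versus 1.06 and 4.68 TPM, and at 1.46 and 2.23 TPM in the controls, a gap of 2.66. Krt7 (ENSRNOG00000008057), another duct keratin, stood at 14.8 and 23.5 TPM versus 0.32 and 4.99 TPM, and Krt17, a keratin of basal and injured epithelium, at 4.52 and 5.48 TPM versus 0.10 and 0.14 TPM. As deposited, TP replicate 2 was thus the higher TP library for the duct keratins and the lower for Krt8 and Krt18, while after scaling it was the lower for Krt19 too. Krt10, Krt20 and Krt79 were not separated, and Krt79 stood at 35.5 TPM in TP replicate 2 alone, with at most 0.60 TPM elsewhere.

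Of 10 measured claudins, the proteins that seal tight junctions, 5 were separated higher, against 2.54% of all genes, and 0 lower. The 5 were Cldn3, Cldn4, Cldn6, Cldn7 and Cldn18. Cldn4, Cldn6 and Cldn18 reached the filter only through the treated libraries. Of the other 7, 2 were separated higher, against 1.52% of all such genes. Cldn4 (ENSRNOG00000001476), known from duct epithelium, stood at 35.0 and 49.5 TPM in treated rats and at 0.37 and 0.82 TPM in TP rats, a gap of 4.54. Its log2 fold change was 5.30 ± 1.42 (SE; limma adjusted p = 0.110), and 5.12 ± 0.39 (SE; adjusted p = 0.0863) after scaling. Cldn7 (ENSRNOG00000017325) stood at 34.2 and 44.0 TPM versus 3.10 and 0.76 TPM, a gap of 2.05. Cldn3, already present in control pancreas at 9.78 and 10.3 TPM, stood at 64.1 and 74.0 TPM versus 12.8 and 4.19 TPM. Cldn6 and Cldn18 were lower in level, with 12.03 and 12.13 TPM versus 1.31 and 0.14 TPM, and 4.07 and 5.81 TPM versus 0.11 and 0.07 TPM. The claudins that did not separate included Cldn5, the claudin of blood vessels, at 0.42 and 0.34 TPM between TP values of 0 and 13.4 TPM, and Cldn10, at 6.38 and 6.42 TPM versus 8.25 and 2.57 TPM. The 5 keratins and the 5 claudins were separated higher under all 5 scalings that were run, which 1.34% of all genes were.

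**Figure D3:**
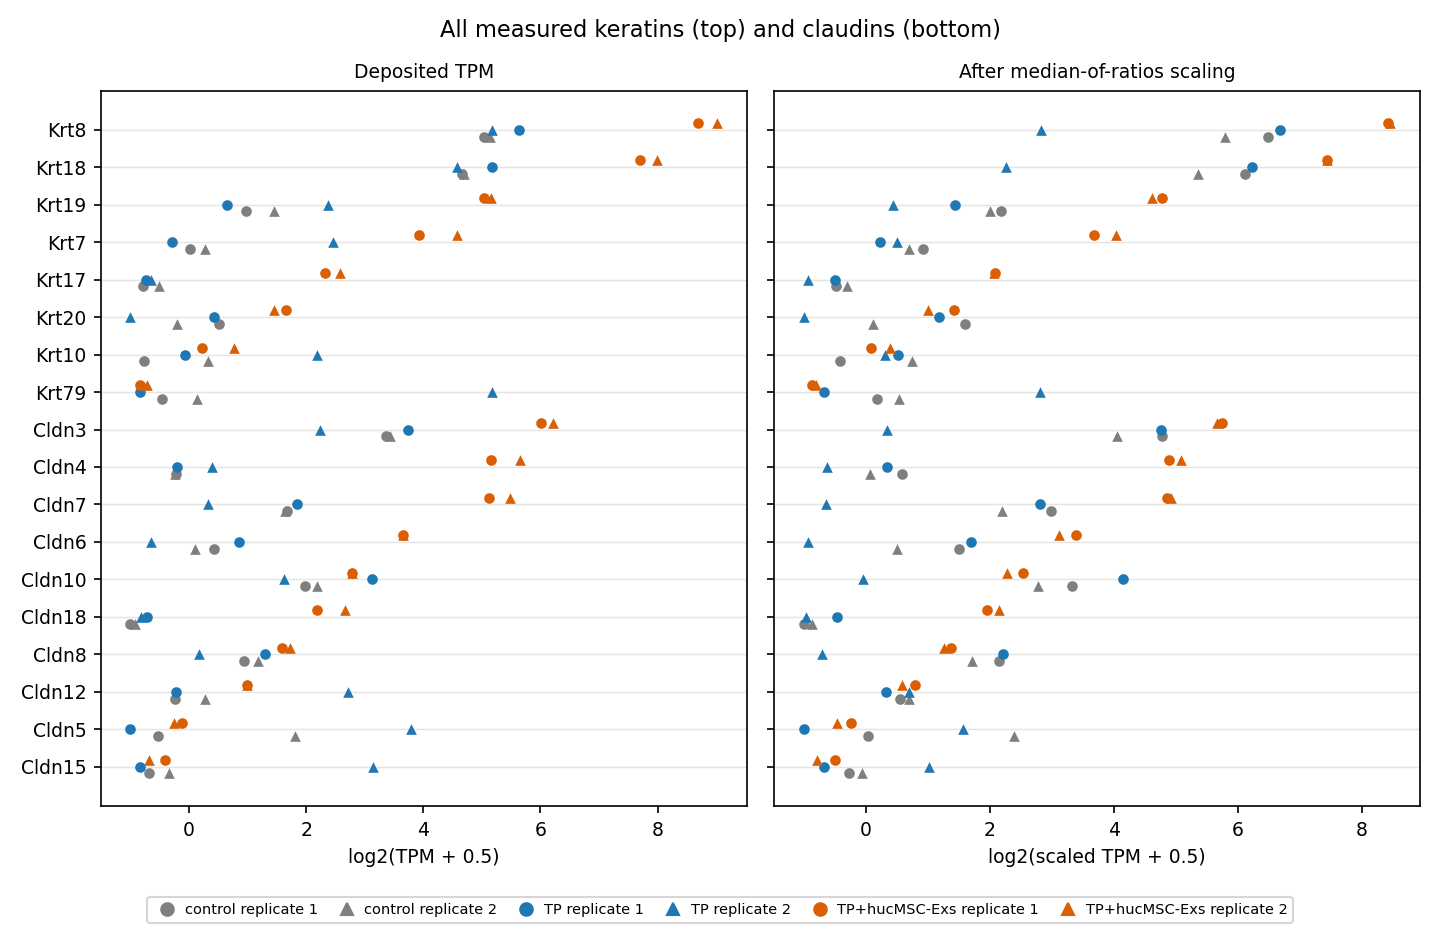
Level of all 8 measured keratins (top) and 10 measured claudins (bottom), ordered by treated mean, on the log2(TPM + 0.5) scale as deposited (left) and after median-of-ratios scaling (right), with 1 symbol per library. For Krt8, Krt18, Krt19, Krt7, Krt17 and for Cldn3, Cldn4, Cldn7, Cldn6 and Cldn18 the treated libraries lie right of both TP libraries in both panels; for Cldn5, Cldn12, Cldn15, Krt10 and Krt79 TP replicate 2 is the highest TP library by a wide margin on the left.

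Other junction proteins showed the same arrangement in part. Of 21 further tight-junction genes, 8 were separated higher, against 2.54% of all genes, and 0 lower. Without the 4 that reached the filter only through the treated libraries, 5 of 17 were, against 1.52%. Among the 8 were Cxadr, an adhesion receptor at tight junctions, at 16.3 and 19.4 TPM versus 1.07 and 1.56 TPM, and Lsr, which builds junctions where 3 cells meet, at 47.2 and 60.6 TPM versus 8.21 and 4.49 TPM. Crb3, a protein of the apical polarity complex, stood at 21.9 and 27.2 TPM versus 4.21 and 0.55 TPM. The scaffold gene Tjp1 did not separate and stood at 3.75 and 3.79 TPM between 0.96 and 13.9 TPM. Of 8 adherens-junction genes, none of which needed the treated libraries to reach the filter, 4 were separated higher, against 1.52% of all such genes, led by Cdh1, E-cadherin, at 48.3 and 57.2 TPM versus 5.27 and 2.28 TPM, a gap of 1.77. Epcam (ENSRNOG00000015667), the epithelial adhesion molecule grouped with them, stood at 78.8 and 111 TPM versus 14.9 and 3.71 TPM. The catenins that link cadherins to actin, Ctnna1, Ctnnb1 and Ctnnd1, were not separated, as in Ctnnb1, with 34.04 and 39.33 TPM between 13.5 and 98.3 TPM. Of 7 desmosome genes, 4 were separated higher (Dsc2, Dsp, Jup and Pkp3), against 2.54% of all genes, with gaps of 0.06 to 1.00. However, Dsc2 and Pkp3 reached the filter only through the treated libraries. Of the other 5, 2 were separated higher, against 1.52% of all such genes. F11r, Jup and Nectin2 were separated in the deposited and the median-of-ratios scaled TPM but not after scaling to acinar genes. By the gene ontology terms in the table, 13 of 56 genes of the bicellular tight junction (23.2%), 9 of 15 of the apicolateral plasma membrane (60.0%) and 1 of 24 of the brush border (4.17%) were separated higher, beside 2.54% of all genes, terms picked after the values were seen.

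Genes of the attachment to the basement membrane were also among the separated ones. Itgb4 (ENSRNOG00000005580), the integrin chain that anchors epithelial cells to laminin, stood at 74.5 and 83.1 TPM versus 2.63 and 5.54 TPM in TP rats and 3.02 and 3.44 TPM in the controls, a gap of 3.24. Lamb3 (ENSRNOG00000006025), a chain of laminin-332, its ligand, was lower in level, at 8.36 and 13.9 TPM versus 0.09 and 0.79 TPM, a gap of 2.78. Both treated libraries were above all other libraries for both genes. The partner of Itgb4, Itga6, was not separated, at 6.65 and 7.86 TPM between 1.51 and 14.5 TPM. Of 5 measured genes of the matriptase system, a protease of epithelial surfaces, 3 were separated higher, against 2.54% of all genes. These were St14, Spint1 and Tmprss2, whereas Prss8 and Spint2 were not separated. Tmprss2 reached the filter only through the treated libraries, and 2 of the other 4 were separated, against 1.52% of all such genes. St14, which encodes matriptase, stood at 34.2 and 39.1 TPM versus 2.78 and 11.2 TPM. Its inhibitor Spint1 stood at 18.4 and 23.3 TPM versus 2.29 and 1.73 TPM. Of 13 measured EGFR ligand and epithelial repair genes, 2 were separated higher, Lamb3 among them, against 2.54% of all genes. Both reached the filter only through the treated libraries, and 0 of the other 11 were separated higher. Tnfrsf12a, the receptor of the cytokine TWEAK, stood at 31.8 and 38.7 TPM, between 1.13 and 39.3 TPM.

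Duct genes differed in level, and some defining markers of duct cells were below 1 TPM in all 6 libraries. Of 14 measured genes in the duct and metaplasia list, 10 were separated higher, against 2.54% of all genes, and 0 lower. Cldn4, Klf5 and Prom1 reached the filter only through the treated libraries, and 7 of the other 11 were separated, against 1.52%. Of the 10, 7 were separated also after scaling to acinar identity genes, under which 157 genes in all (1.37%) were separated higher. The exceptions were Prom1, Tspan8 and Klf5. Krt8, Krt19, Cldn4 and Cldn7 were counted in this list, in their families and in the apicolateral membrane term, so these counts overlap. Sox9, a transcription factor of ducts, stood at 0.62 and 0.56 TPM versus 0.30 and 0.46 TPM, and Cftr, the chloride channel of ducts, at 0.82 and 0.74 TPM versus 0.41 and 0.19 TPM, both below the filter. The 5 duct markers summed to 51.6 and 63.6 TPM in treated rats, 4.05 and 10.8 TPM in TP rats and 6.02 and 7.33 TPM in the controls, most of it from Krt19 and Krt7 in the treated ones. In whole tissue, fewer cells of a type and less RNA per cell cannot be told apart, and the share of duct cells was not tested. Since stomach and gut lie beside the pancreas and express several of these genes, their own markers were read, chosen after the values were seen. The 7 stomach genes found (Gkn1, Gkn2, Tff1, Atp4a, Atp4b, Pgc and Cblif) reached at most 0.20 TPM in any library. Of 7 intestinal genes, 6 reached at most 0.26 TPM. Vil1 stood at 11.7 and 13.3 TPM versus 4.66 and 1.71 TPM, and at 4.37 and 4.33 TPM in the controls. Muc5ac and Muc2 were sought too but had no matching symbol. Whether any library held gut tissue was not tested.

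Among secreted stress proteins and acute-phase genes, a few members were separated and most lay between the TP libraries. Of 13 measured pancreatic stress proteins, 4 were separated higher, against 2.54% of all genes, namely Clu, Nupr1, Reg3g and Reg3a. Clu (ENSRNOG00000016460), secreted and known as clusterin, a chaperone, reached 9861 and 14148 TPM versus 290 and 509 TPM, and after scaling its gap was 3.76. Nupr1 (ENSRNOG00000019206), a chromatin protein induced by stress, reached 4405 and 5874 TPM, and its TP libraries, at 114 and 122 TPM, lay below the controls at 298 and 273 TPM. Try5 (ENSRNOG00000045612), a trypsinogen, did so too, with 31.5 and 8.92 TPM in TP rats, 90.1 and 80.7 TPM in the controls and 3547 and 3040.1 TPM in treated rats, a gap of 4.96. Trypsinogen and Reg genes have close copies that share reads, so their levels are uncertain. Clu, Nupr1, Try5, Hpx, Reg3g and LOC286960, which has no proper symbol, were the 6 genes called higher by limma on the deposited TPM. After median-of-ratios scaling none of the 6 was called, with a limma adjusted p of 0.303 for Clu, 0.361 for Nupr1, 0.368 for Try5, 0.128 for Hpx, 0.691 for Reg3g and 0.734 for LOC286960. Their log2 fold changes moved little, from 4.94 to 5.21 for Clu, 5.43 to 5.69 for Nupr1, 7.56 to 7.69 for Try5, 6.17 to 5.87 for Hpx, 6.596 to 6.316 for Reg3g and 3.99 to 4.26 for LOC286960. The Reg lectins split, since Reg3a (ENSRNOG00000006360), at 19342 and 25204 TPM versus 6879 and 1025 TPM, was separated with a gap of 0.16, whereas Reg3b and Reg1a were separated higher as deposited, like 5.09% of all genes (1.62% lower), but not after scaling.

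Of 20 acute-phase and gp130-STAT3 genes, 2 were separated higher, Hamp and Hpx, against 2.54% of all genes. Both reached the filter only through the treated libraries, and 0 of the other 18 were separated higher. As deposited, 16 of the 20 lay between the TP libraries, as did 10012 of all 11477 genes. Hpx (ENSRNOG00000018257), which binds free haem, stood at 50.9 and 157 TPM versus 0.77 and 0.72 TPM, so the treated pair was farther apart than the TP pair. Stat3 itself stood at 17.6 and 23.3 TPM between 5.67 and 61.5 TPM, and its feedback inhibitor Socs3 at 4.93 and 7.93 TPM between 1.35 and 36.5 TPM. Serpina1, a protease inhibitor made by liver, stood at 20.1 and 33.9 TPM versus 5.99 and 1.56 TPM, while the liver gene Alb stood at 1.13 and 0.69 TPM, below 1.47 and 4.30 TPM as deposited. Of 18 NRF2 and antioxidant genes, 2 were separated higher, against 2.54% of all genes, Gpx2 and Gstp1, and Gpx2 reached the filter only through the treated libraries. Gstp1 had a gap of 0.05 and was not separated after scaling to acinar genes. After median-of-ratios scaling alone, 9 of the 18 lay below both TP libraries and 3 above, against 17.8% and 18.2% of all genes. Gpx2 (ENSRNOG00000055672), the glutathione peroxidase of epithelium, stood at 8.09 and 16.0 TPM versus 0.31 and 0.18 TPM, a gap of 2.66. The haem-degrading enzyme Hmox1 stood at 11.7 and 29.2 TPM between 5.67 and 346 TPM.

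For inflammatory, stromal and acinar genes the size of the difference, and for several lists its direction, depended on which TP library was compared. Of 17 cytokine and chemokine genes, 1 was separated higher, against 2.54% of all genes. It was Cx3cl1, a membrane-bound chemokine that reached the filter only through the treated libraries, at 2.07 and 2.97 TPM versus 0.22 and 0.97 TPM. The other 16 lay between the TP libraries as deposited, among them Il1b, at 1.18 and 2.56 TPM between 0.24 and 26.7 TPM. All 19 monocyte and macrophage genes lay between the TP libraries too. As deposited, 10012 of all 11477 genes did so, and such counts are not particular to these lists. After scaling the median monocyte and macrophage gene was 1.15 (log2) above TP replicate 1 and 1.22 below TP replicate 2 (a difference of -1.22). Over all genes those medians were 0.01 and -0.02. The 5 macrophage markers summed to 383 and 726 TPM in treated rats, between 41.4 and 4316 TPM in TP rats, and the 4 neutrophil markers to 55.6 and 101 TPM, between 2.96 and 469 TPM. Of 19 fibroblast and matrix genes, 0 were separated in both scalings. All 19 lay between the TP libraries as deposited. After scaling, 12 of the 19 lay below both TP libraries, a larger share than the 17.8% of all genes, and the medians were -0.25 and -1.99. The acinar lists ran the other way: 1 of 21 digestive enzymes, Try5, and 0 of 19 acinar identity genes were separated. Their scaled medians were -1.94 and -1.43 against TP replicate 1, and 3.33 and 3.07 against TP replicate 2. Prss1, an abundant trypsinogen, stood at 152806 and 139717 TPM, between 161728 and 44279 TPM. The acinar transcription factor Ptf1a stood at 32.6 and 34.5 TPM, above 23.1 and 9.51 TPM as deposited but not after scaling. None of the 9 islet genes was separated, as in Ins1, with 1373 and 656 TPM versus 434 and 125 TPM, and control values from 141 to 925 TPM.

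**Figure D4:**
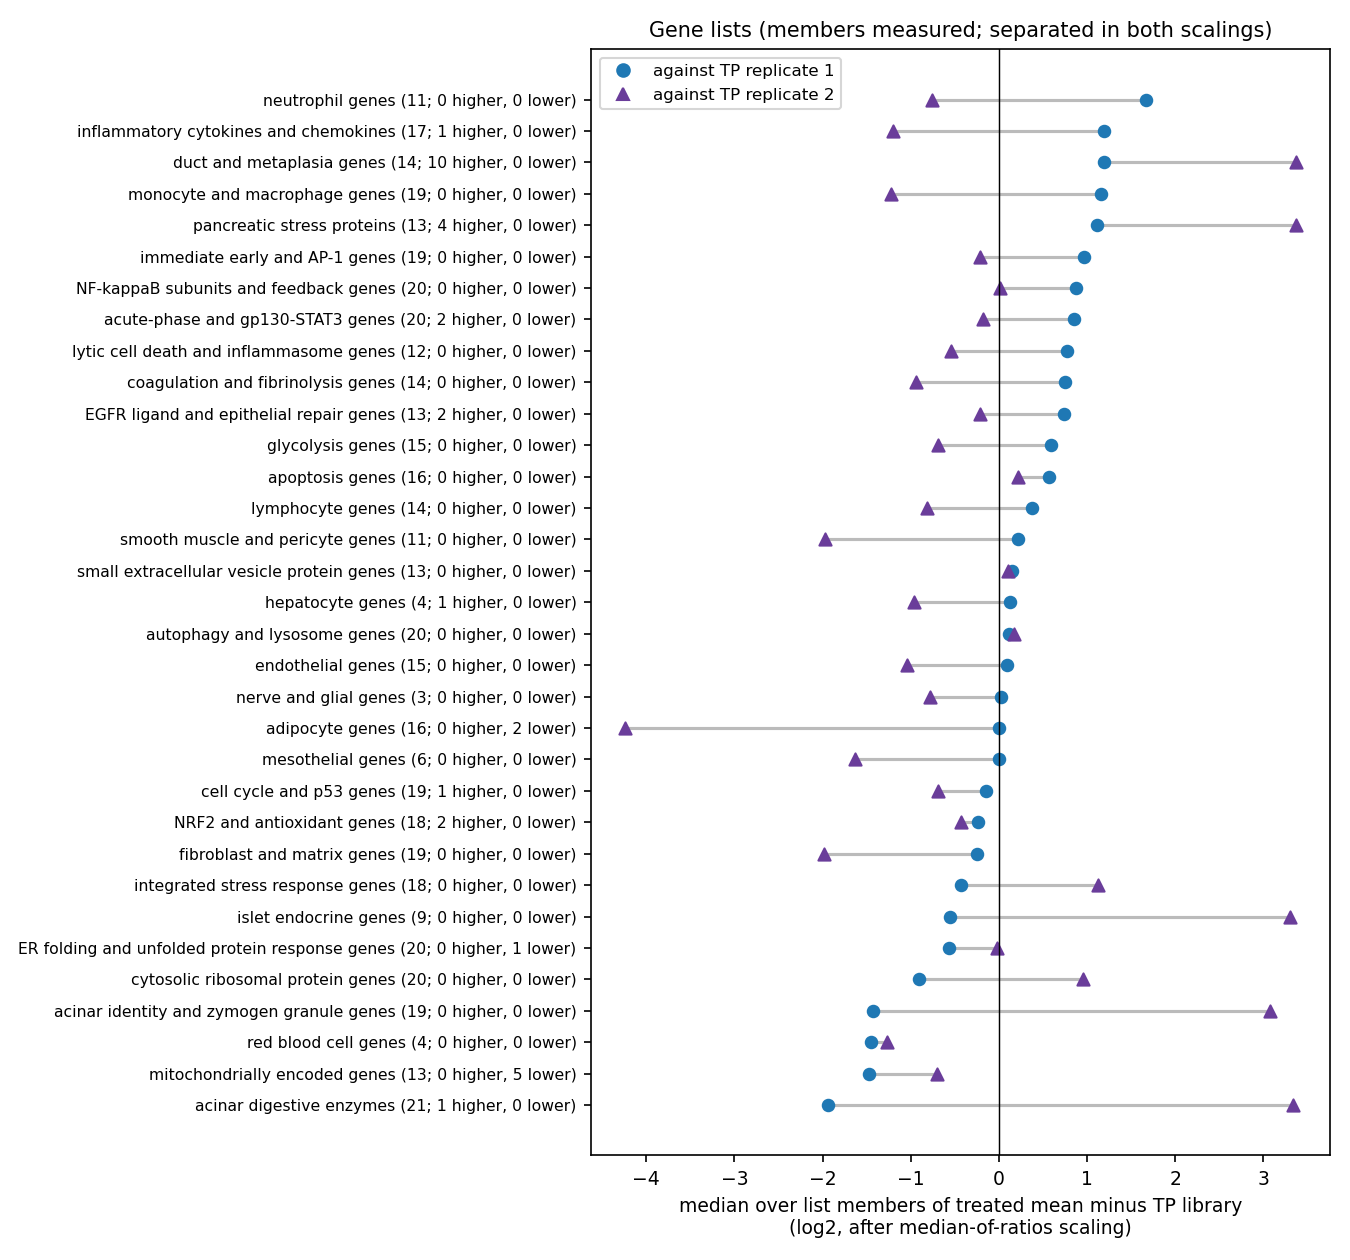
Median over the measured members of each gene list of the treated mean minus TP replicate 1 (blue circles) and minus TP replicate 2 (purple triangles), log2 after median-of-ratios scaling; brackets give members measured and members separated in both scalings. The duct and metaplasia list and the stress protein list lie right of 0 against both TP libraries (1.19 and 3.37, and 1.11 and 3.37), the mitochondrially encoded list left of 0 against both (-1.48 and -0.70), and the acinar, macrophage and fibroblast lists change side or differ widely between the TP libraries.

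Genes lower in the treated libraries were fewer, and as deposited 97 of the 101 were higher in TP replicate 2 than in TP replicate 1. The same held for 9906 of the 10012 genes with the treated libraries in between, and for 187 of the 291 separated higher. Of the 101, only 57 had a proper gene symbol, and 20 were listed at 0 in both treated libraries. AABR07018115.1, 1 of the 2 genes called lower by limma, stood at 41.5 and 48.5 TPM in TP rats and was listed at 0 in the other 4, a gap of 4.24. AC109100.1, chosen after its values were seen, stood at 11.99 and 52.83 TPM in TP rats and was likewise listed at 0 in the rest, a gap of 4.36. Psme3 (ENSRNOG00000051344), a proteasome activator that most cells express, stood at 1.90 and 19.8 TPM in TP rats and was listed at 0 in the treated libraries and in both controls. A listed 0 for such a gene may not be a measured absence. Ca3, carbonic anhydrase 3 of muscle and fat and the other gene called lower, was not separated, since it was listed at 0 in TP replicate 1 and stood at 3475 TPM in TP replicate 2.

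The mitochondrially encoded genes were the list with the most members separated lower, 5 of 13 (Mt-nd3, Mt-nd4, Mt-nd5, Mt-nd6 and Mt-co2), against 0.88% of all genes, and 0 were separated higher. These encode subunits of the respiratory chain. Mt-nd4 (ENSRNOG00000029707) stood at 91.0 and 80.2 TPM in treated rats, 130 and 749 TPM in TP rats and 99.6 and 121 TPM in the controls, a gap of 0.51. Mt-nd6 (ENSRNOG00000029042) stood at 56.6 and 55.1 TPM versus 83.0 and 466 TPM, a gap of 0.55. In the deposited TPM the treated values of Mt-nd4 and Mt-nd6 were below both controls as well, whereas those of Mt-nd3 and Mt-co2 overlapped with the controls, and no mitochondrial gene passed limma in either scaling. The other 8 were not separated, as in Mt-co1, with 1480 and 1529 TPM between 1340 and 9233 TPM. Of 16 adipocyte genes, 2 were separated lower, against 0.88% of all genes. Plin1, which coats lipid droplets, was listed at 0 in both treated libraries and stood at 0.04 and 174 TPM in TP rats. Pck1 stood at 0.40 and 0.51 TPM versus 0.52 and 23.1 TPM. Gpd1 (ENSRNOG00000056457), a glycerol phosphate enzyme abundant in fat and muscle, stood at 0.61 and 0.67 TPM versus 1.38 and 445 TPM. For these genes the distance to TP replicate 1 was small and the distance to TP replicate 2 large, and the 5 adipocyte markers summed to 26.6 and 34.4 TPM in treated rats against 16.6 and 3558 TPM; their part in the result was not tested.

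**Figure D5:**
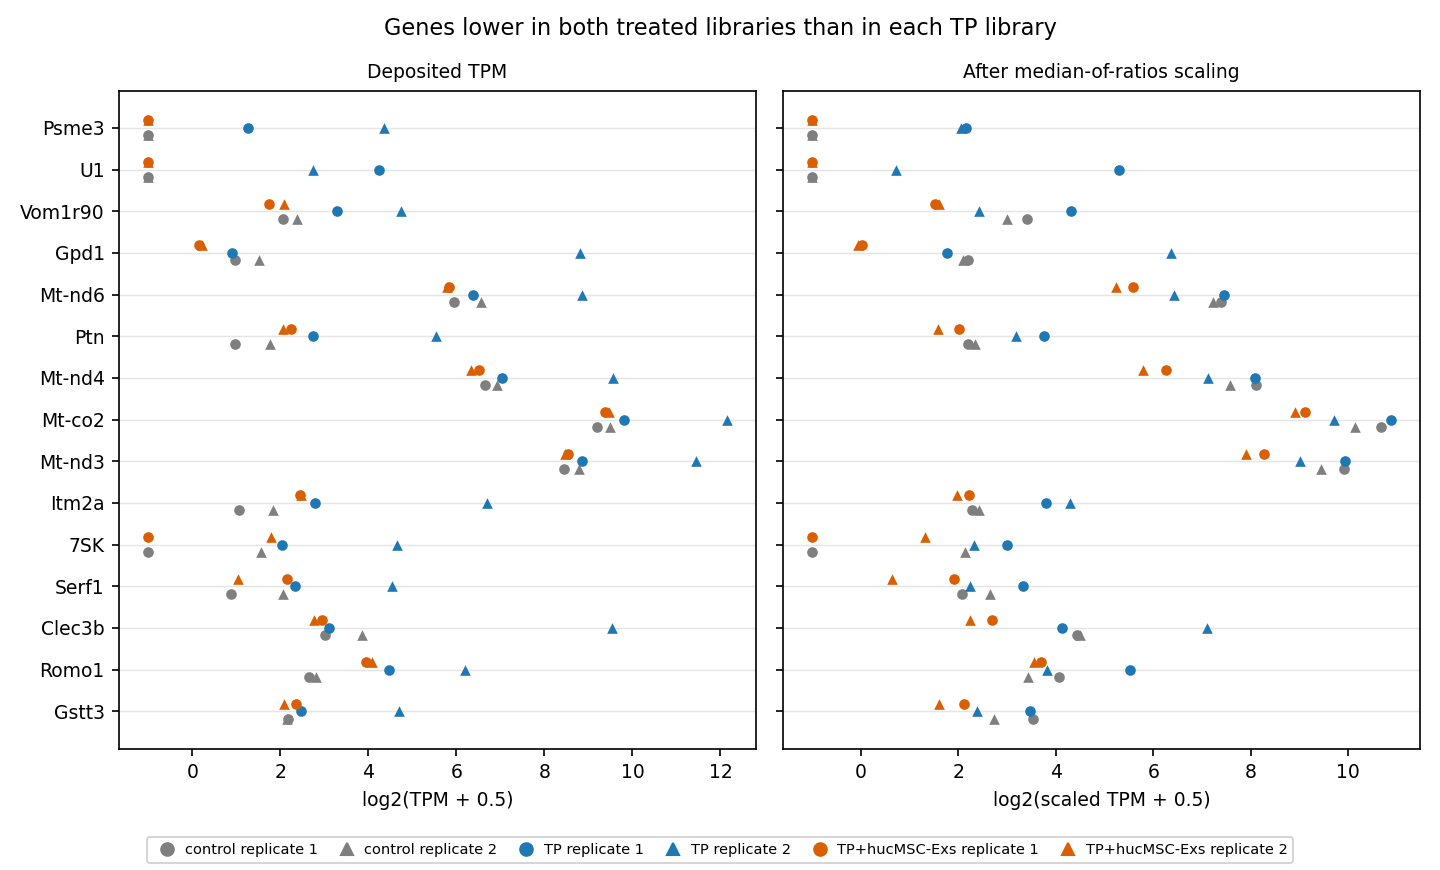
Level of each named gene separated lower, on the log2(TPM + 0.5) scale as deposited (left) and after median-of-ratios scaling (right), with 1 symbol per library, coloured by group and shaped by replicate. In every line both treated libraries (orange) lie left of both TP libraries (blue), close to TP replicate 1 for Gpd1, Clec3b and the Mt genes in the left panel and far from TP replicate 2.

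Few genes of other lists were separated, as was so over all genes (2.54% higher and 0.88% lower). Btg2, a p53 target that slows the cell cycle, was the 1 of 19 cell cycle and p53 genes separated higher, at 62.0 and 95.3 TPM versus 14.3 and 35.6 TPM. Creld2, a protein of the endoplasmic reticulum, was the 1 of 20 ER folding genes separated lower, with a gap of 0.01. No member was separated among the integrated stress response, NF-kappaB, neutrophil, lymphocyte, smooth muscle, endothelial, red blood cell, mesothelial, nerve, apoptosis, lytic cell death, autophagy and lysosome, coagulation, glycolysis, ribosomal protein and vesicle protein lists. After scaling alone, 8 of 20 NF-kappaB and 8 of 16 apoptosis genes lay above both TP libraries, with 1 and 2 below. Other lists leaned the other way: 10 of 20 ER folding genes lay below both TP libraries, with 0 above. Likewise 10 of 19 cell cycle and p53 genes lay below, with 5 above, and 4 of 4 red blood cell genes, with 0 above. The shares over all genes were 18.2% above and 17.8% below. Without TP replicate 2 limma called 3552 genes higher and 52 lower, and without TP replicate 1 it called 434 and 9459, while without either treated library it called 0 (34 and 33 genes at an unadjusted p below 0.05). With 1 TP library left, limma takes its spread from the other groups, so the difference between the TP libraries no longer enters the test. Of the 8 genes called on the deposited TPM, 0 were called after median-of-ratios scaling.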

How the data were processed

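The data were 6 libraries of rat pancreas, 2 each of control, TP and TP+hucMSC-Exs, each from a separate rat per the labels. RNA was extracted on columns and libraries were made with a SMARTer mRNA-Seq kit, per the labels' protocols. The authors deposited 1 table of TPM per gene. The submitters' processing notes name GRCm38 and mm10, which are mouse builds, whereas 32883 of the gene identifiers are rat Ensembl identifiers and 1118 are MSTRG identifiers of assembled transcripts. No aligner, quantifier or strand setting is given in the sources used here, so overlapping and antisense genes are uncertain, and the depth is unknown. All columns belonged to a labelled sample.

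Genes with a mean of at least 1 TPM were kept. limma 3.58.1 (R 4.3.3) with a variance trend was fitted to log2(TPM + 0.5) over all 6 libraries, with Benjamini-Hochberg adjustment and a threshold of 0.05. Separation and gaps were computed in Python 3.11.15 on the deposited TPM and on TPM divided by median-of-ratios factors from 10746 genes. The limma fit was tested on simulated data, and the gap computation on typed values with a known answer. Genes named are those with a proper symbol past the threshold, up to 15 per direction with the largest gap and at least 10 TPM in the higher group, and per list up to 4 separated members, or else the 2 of highest mean TPM. Other genes, namely those without a proper symbol, members of the gene families, the gut markers, single list members given as examples and the gene ontology terms, were named after their values were seen. The members and the 33 gene lists were chosen with earlier results of these data known. Alternatives were other scalings, pseudocounts, filters and sets of libraries, and a replicate block. Some members of these lists are not reported here.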

Additional observations from a re-analysis of the deposited data

How the results depend on the processing

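The counts of called genes depended on scaling, filter and libraries, and the cause was not tested. On the deposited TPM limma called 6 genes higher and 2 lower (87 and 65 at an unadjusted p below 0.05). It called 2 and 0 after median-of-ratios scaling (585 and 240 unadjusted), 0 and 0 after quantile normalization (595 and 388), and 3 and 1 on TPM rescaled without the digestive enzymes. With scaling to acinar identity genes, chosen after seeing the data, it called 0 and 0 (18 and 53). It called 4 genes lower with a pseudocount of 0.1 and with no variance trend, 1 with a minimum of 5 TPM, and 0 and 0 with no filter (251 and 64). It called 10 higher with the filter over 4 libraries, and 1 and 0 in a fit of only those 4 (33 and 26 unadjusted). Leaving out 1 library in turn gave 0 to 3552 genes higher and 0 to 9459 lower; without TP replicate 1 it called 434 and 9459, without TP replicate 2 it called 3552 and 52, without either control 1 and 0, and without either treated library 0 and 0. After median-of-ratios scaling as well, the counts were 705 and 688 without TP replicate 1 and 33 and 20 without TP replicate 2. A library left alone in its group is assumed to vary like the other groups. Of the 8 genes called, 0 remained called after median-of-ratios scaling, after quantile normalization or without either treated library, and all 8 remained with either pseudocount. The log2 fold change of Ca3 ranged from -12.65 without TP replicate 1 to 0.11 without TP replicate 2, where it reversed.

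With the replicate number as a block, limma called 16 genes higher and 6 lower, and of the genes named Hamp (adjusted p = 0.0168), Tspan1 (0.0233), Reg3a (0.0285), AC109100.1 (0.0285), Cldn4, Ubd and Reg3b (0.0364 each) passed in addition. The labels do not say that a number marks a shared animal, litter or day. Deviations from the group means correlated across genes by 0.28 between control and TP libraries of the same number, by 0.08 between control and treated libraries and by 0.14 between TP and treated libraries, so the samples are taken to share only a number.

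The counts of separated genes, 291 higher and 101 lower, were 584 and 186 in the deposited TPM alone, 2093 and 2042 after median-of-ratios scaling alone, 2062 and 2536 after quantile normalization alone, and 1003 and 479 without the digestive enzymes. They were 89 and 17 with a gap of at least 1, 41 and 6 with a gap of at least 2, 719 and 393 with no filter, 113 and 36 with a minimum of 5 TPM, 171 higher with the filter over control and TP libraries, chosen after seeing the data, and 157 higher when scaling to acinar genes was required too. Leaving out 1 library in turn gave 357 to 5000 higher and 224 to 5349 lower; without TP replicate 1 they were 725 and 5349, and without TP replicate 2 they were 5000 and 317. TPM keep no depth, so a level near 0 carries no counting interval.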

Other observations

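Several separated genes belonged to no list or family described above and are named here after their values were seen. Calcb (calcitonin gene-related peptide 2, a neuropeptide) stood at 32.9 and 32.9 TPM in treated rats versus 1.61 and 0.71 TPM in TP rats. Neurl3, a ubiquitin ligase, stood at 67.6 and 95.2 TPM versus 1.15 and 15.3 TPM, and the controls at 0.20 and 2.05 TPM. Sectm1b, a membrane protein, stood at 37.6 and 75.5 TPM versus 1.67 and 9.74 TPM. Of 7 genes of the carboxylesterase 2 family in the table, enzymes that hydrolyse esters, 3 were measured, each reaching the filter only through the treated libraries, so their separation follows in part from the filter. Ces2a stood at 20.2 and 22.9 TPM versus 2.00 and 0.69 TPM, and Ces2j at 15.5 and 21.8 TPM versus 2.44 and 0.17 TPM. Close copies in this family share reads, so their single levels are uncertain. Ifi27l2b, a member of a family of interferon-inducible genes, stood at 969 and 1147 TPM versus 23.1 and 413 TPM. The epithelial transcription factor Elf3 stood at 11.8 and 18.3 TPM versus 2.32 and 0.33 TPM, and Rab25, a small GTPase of epithelial membrane recycling, at 25.5 and 32.8 TPM versus 4.45 and 2.38 TPM. In each of these genes both treated libraries were above all 4 other libraries. None of them passed limma with Benjamini-Hochberg adjustment in either scaling.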
